A study of Oryza sativa with 10 samples.

Results

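The plastid nitrite reductase (NiR, LOC_Os01g25484), the plastid PEP carboxylase Osppc4 (LOC_Os01g11054) and the plastid NADP-malic enzyme (NADP-ME, LOC_Os01g09320) were followed by RNA-seq in rice seedlings that were moved from dark to light and then sprayed with a hormone. These 3 genes were taken by their locus IDs from the 2282 complete gene rows used here, and the rule for them uses no measured value. Under light, the transcript level of Osppc4 rose from 20.2 to 123 FPKM within 24 h, and that of NADP-ME fell by 45.3% at 8 h and then rose again. Over all 10 libraries, sprayed ones included, the level of NiR stayed within 1.37-fold between its lowest and highest library as deposited. The ratio of Osppc4 to NADP-ME within a library moved from 0.253 in the dark to 1.78 at 24 h of light, and it was 1.14 with ABA and 0.918 with IAA.

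The seedlings were of the indica cultivar YD6 and grew in the dark for 3 d, with no genetic change named for any group. Those taken in the dark are the 0 h samples, and those taken after 8 and 24 h of light are the 8 h and 24 h samples. No samples were kept in the dark for 8 or 24 h more. Light and the time that passed, with the age of the seedlings, thus cannot be told apart in the comparisons between 0, 8 and 24 h. The ABA and IAA samples stayed in light for 23 h and 30 min and were then sprayed for 30 min with 100 μM abscisic acid (ABA, a hormone of stress responses) or 100 μM indole-3-acetic acid (IAA, the main natural auxin), each in 1% DMSO. A spray of the solvent by itself (1% DMSO) is described too. The sources used here do not say if the 24 h seedlings had it, so hormone and spray cannot be told apart in a comparison with 24 h. Each of the 5 conditions had 2 biological replicates, and no tissue or cell type finer than the seedling is given. The age of the seedlings is given as the 3 d in the dark and the time in light.

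NiR is the enzyme that reduces nitrite to ammonium in the plastid with electrons from ferredoxin, the second step by which a plant makes nitrate usable. PEP carboxylase adds bicarbonate to phosphoenolpyruvate (PEP) and gives oxaloacetate, from which malate and the carbon skeletons for amino acids are made. Most plant forms of it work in the cytosol, and Osppc4 is the form that rice carries in the chloroplast, where it has been linked to ammonium assimilation. NADP-ME splits malate into pyruvate and carbon dioxide and yields NADPH, and its plastid form is best known for its part in the photosynthesis of plants such as maize.

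The deposited values are FPKM, which divide the fragments of each gene by its length and by the size of the library, so that levels of different genes can be set side by side. The depth of the libraries is unknown, and no counting interval is given. Of the 2282 genes, all on chromosome 1, 491 are listed at 0 in every library and 1092 had a mean of at least 1 FPKM, among them all 3 genes described here. The changes were tested with limma on log2(FPKM + 1) over these 1092 genes and the 10 libraries, and p-values were adjusted by Benjamini-Hochberg over all genes tested. A gene is called where it changed 2-fold or more with an adjusted p under 0.01, and it passed the test where the adjusted p was under 0.01, whatever the size of the change. Over all tested genes the median log2 change was -0.18 between 0 and 8 h, -0.18 between 8 and 24 h and -0.38 between 0 and 24 h. It was -0.10 with ABA, 0.13 with IAA and 0.21 between IAA and ABA, so the changes of the 3 genes are also given after median-of-ratios scaling, which sets the typical gene to no change. In these seedlings a lower level in each cell and a smaller share of the cells that express a gene cannot be told apart.

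Among the 18 tests of the 3 genes, 12 passed the adjusted p of 0.01 and 3 were called, all 3 of them rises of Osppc4. The share of all tested genes that passed was 47% from 0 to 8 h, 44.7% from 8 to 24 h, 67.9% from 0 to 24 h, 19.7% with ABA, 35.9% with IAA and 42.2% between IAA and ABA. With ABA, with IAA and between them, none of the 3 genes was called, where 2.01%, 4.76% and 5.77% of all tested genes were. After median-of-ratios scaling, 15 of the 18 tests passed and 3 were called, and 37.3%, 34.1%, 45.7%, 16.2%, 33.5% and 31% of all tested genes passed in the same order of comparisons. In the values as deposited, the libraries of the compared conditions did not overlap in any of the 18 tests, which held for 83.2%, 76%, 87.9%, 68.6%, 73.5% and 80.1% of all tested genes in that order, so such a separation was common.

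**Figure D1:**
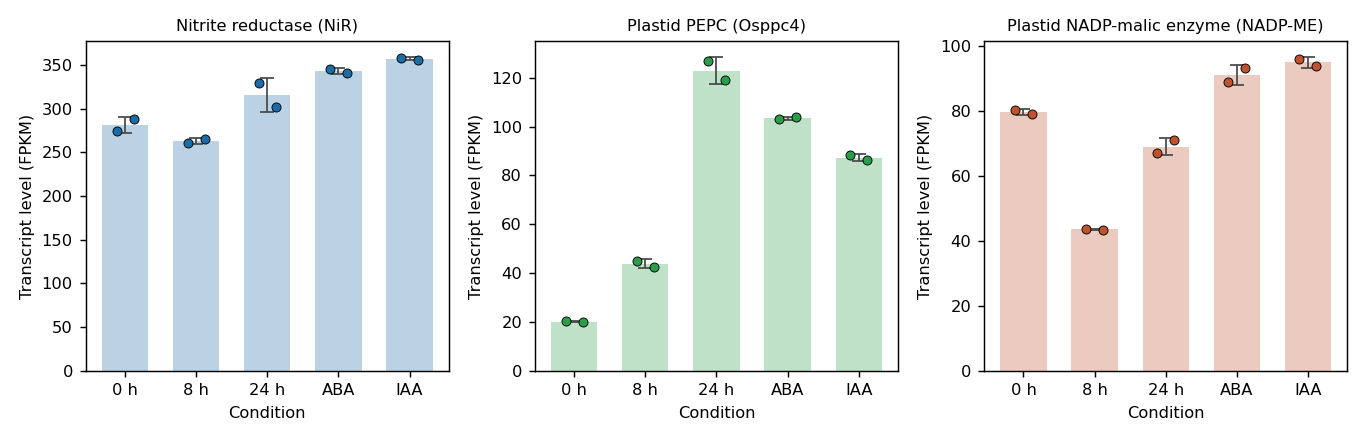
Transcript level in FPKM (vertical axes, from 0) of NiR, Osppc4 and NADP-ME in the 5 conditions (horizontal axes), where points are the 2 libraries, bars the mean and error bars the SD. Osppc4 climbed from 20.2 to 123 FPKM between 0 and 24 h, NADP-ME was lowest at 8 h with 43.6 FPKM, and NiR kept between 261 and 359 FPKM in every library.

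NiR is encoded on chromosome 1 between 14446910 and 14453474 on the plus strand (MSU7.0 gene models), and no other gene of the table overlaps its span of 6565 bp. It was by far the most abundant of the 3 transcripts, with a mean of 312 FPKM over the 10 libraries, which is the level of rank 10 among the 1092 tested genes. The level was already high in the dark, at 275 and 288 FPKM in the 2 libraries at 0 h. At 8 h the libraries had 261 and 266 FPKM, both slightly below those in the dark. At 24 h they had 330 and 302 FPKM, which is the widest gap between replicates seen for this gene (316 ± 19.6 FPKM, SD, n = 2). Both libraries at 24 h lay above both at 8 h and both at 0 h.

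From 8 to 24 h of light, NiR rose by 0.26 on the log2 scale (limma adjusted p = 0.00177, SE 0.056), which is 1.20-fold and not a call. After median-of-ratios scaling this rise was 0.47 (limma adjusted p = 2.10e-05), also below 2-fold. In this comparison 12.2% of all tested genes rose with an adjusted p under 0.01. As deposited the adjusted p was 0.0195 with the libraries of the 2 time points alone, 0.0211 without 8 h replicate 1 and 0.0124 without 8 h replicate 2, so the test was not passed there. From 0 to 8 h the change of NiR was -0.09 (limma adjusted p = 0.164, SE 0.056), with a 95% interval from -0.22 to 0.03. From 0 to 24 h it was 0.17 (limma adjusted p = 0.0170, SE 0.056), with a 95% interval from 0.04 to 0.29.

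The small size of these changes depended on the scale. As deposited, only 4.67% of the tested genes had a narrower range of log2 values over the 10 libraries than NiR (0.46 between its lowest and highest library). After median-of-ratios scaling the range of NiR was 0.88 and 60.3% of the genes had a narrower one. The scaled change from 0 to 24 h was 0.58 (limma adjusted p = 2.12e-06), while that from 0 to 8 h turned to 0.11 (limma adjusted p = 0.130). Set against the median change over tested genes, the deposited log2 change of NiR from 0 to 24 h was 0.54.

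With ABA the libraries of NiR had 345 and 341 FPKM, and with IAA they had 359 and 356 FPKM. All 4 sprayed libraries lay above the 2 at 24 h. Neither difference passed the test, at 0.12 for ABA (limma adjusted p = 0.114, SE 0.056) and 0.18 for IAA (limma adjusted p = 0.0196, SE 0.056). The size of both differences depends on the wide pair at 24 h. Without 24 h replicate 1 the log2 change was 0.18 for ABA and 0.24 for IAA. Without 24 h replicate 2 it was 0.06 for ABA and 0.12 for IAA. After median-of-ratios scaling the difference was 0.24 with ABA (limma adjusted p = 0.00724) and 0.00 with IAA (limma adjusted p = 0.969). Between IAA and ABA it was 0.06 as deposited (limma adjusted p = 0.392, 95% interval from -0.06 to 0.18) and -0.24 after scaling (limma adjusted p = 0.00448), so the direction between the hormones is set by the scaling.

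Osppc4 is encoded on chromosome 1 between 5899555 and 5909595 on the plus strand (MSU7.0 gene models), a span of 10041 bp that no other gene of the table overlaps. In the dark the 2 libraries had 20.2 and 20.1 FPKM, a level above 71.4% of the tested genes. At 8 h of light they had 45.0 and 42.4 FPKM, and at 24 h 127 and 119 FPKM. At 24 h the level was above 97.2% of the tested genes, and the libraries of the 3 time points lay far apart from each other.

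Osppc4 was called higher at both steps of the light treatment. From 0 to 8 h it rose 2.17-fold in FPKM, a log2 change of 1.08 (limma adjusted p = 7.74e-09, SE 0.055), in a comparison in which 4.21% of all tested genes were called higher. From 8 to 24 h it rose 2.81-fold, a log2 change of 1.47 (limma adjusted p = 4.69e-10, SE 0.055), where 3.48% were called higher. The second step was the larger, and 42.4% of the log2 change from 0 to 24 h had been reached at 8 h.

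From 0 to 24 h the transcript of Osppc4 rose 6.09-fold, with a log2 change of 2.55 (limma adjusted p = 2.25e-12, SE 0.055) and a 95% interval from 2.43 to 2.67. In this comparison 6.96% of all tested genes were called higher, and 9 of the 1092 genes had a higher change than Osppc4. Leaving out any 1 of the 4 libraries gave values from 2.50 to 2.59. After median-of-ratios scaling the 3 changes were 1.27 from 0 to 8 h, 1.67 from 8 to 24 h and 2.94 from 0 to 24 h, each of them again called, where 6.32%, 4.95% and 9.52% of all tested genes were called higher.

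With the hormones the level of Osppc4 was lower than at 24 h, opposite to NiR and NADP-ME in the values as deposited. The libraries with ABA had 103 and 104 FPKM and those with IAA 88.2 and 86.2 FPKM, against 127 and 119 FPKM at 24 h. The 3 groups did not overlap, and the order from high to low was 24 h, ABA and IAA under both scales. As deposited, 68.6% of all tested genes did not overlap between ABA and 24 h. That share was 73.5% between IAA and 24 h and 80.1% between IAA and ABA. All 4 sprayed libraries stayed above those at 8 h, by 1.99-fold for the mean with IAA.

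With IAA the transcript of Osppc4 fell by 29.0% relative to 24 h. The log2 change was -0.49 (limma adjusted p = 2.00e-05, SE 0.055), below 2-fold, while 7.6% of all tested genes fell with an adjusted p under 0.01 and 28.3% rose. Only 34 of the 1092 genes had a lower change with IAA than Osppc4. The change ran from -0.53 to -0.44 with each library left out in turn, passing the test each time, and it was -0.66 after median-of-ratios scaling (limma adjusted p = 1.54e-06).

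The difference with ABA was smaller and less certain. It was -0.25 for Osppc4 (limma adjusted p = 0.00551, SE 0.055), in a comparison in which 12.2% of all tested genes fell with an adjusted p under 0.01. The adjusted p was 0.0758 after median-of-ratios scaling, where the change was -0.13. It was 0.0141 without 24 h replicate 1, 0.0396 without ABA replicate 1 and 0.0345 without ABA replicate 2.

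Compared directly, Osppc4 was lower with IAA than with ABA, at -0.24 on the log2 scale (limma adjusted p = 0.00273, SE 0.055) and -0.53 after median-of-ratios scaling (limma adjusted p = 6.35e-06). Of all tested genes, 6.04% were lower with IAA than with ABA at an adjusted p under 0.01. As deposited the adjusted p was between 0.0128 and 0.0243 with either library of ABA or IAA left out, which leaves 1 library in a condition. The methods give the same solvent for both sprays.

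NADP-ME is encoded on chromosome 1 between 4738905 and 4744591 on the minus strand (MSU7.0 gene models), a span of 5687 bp without an overlapping gene in the table. Averaged over the 10 libraries its level was 75.7 FPKM, next to that of Osppc4 at 75.5 FPKM, but the conditions in which each was high differed. The libraries at 0 h had 80.4 and 79.0 FPKM, those at 8 h 43.8 and 43.5 FPKM and those at 24 h 67.1 and 71.0 FPKM. The transcript was thus lowest at 8 h, with close replicates at that time (43.6 ± 0.197 FPKM, SD, n = 2).

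From 0 to 8 h NADP-ME fell by 0.86 on the log2 scale (limma adjusted p = 4.99e-08, SE 0.053), just under a 2-fold change. In this comparison 32.4% of all tested genes fell with an adjusted p under 0.01, and 67 of the 1092 genes had a lower change than NADP-ME. From 8 to 24 h it rose by 0.65 (limma adjusted p = 6.80e-07, SE 0.053), where 12.2% of all tested genes rose with an adjusted p under 0.01 and 75 genes had a higher change. Both changes passed the test with each library left out in turn. They were -0.66 (limma adjusted p = 4.13e-07) and 0.86 (limma adjusted p = 3.80e-08) after median-of-ratios scaling, so the low point at 8 h was present under both scales.

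Whether the level of NADP-ME at 24 h lay below or above that in the dark depended on the scaling. As deposited the mean differed by -13.4%, which on the log2 scale was -0.20 (limma adjusted p = 0.00386, SE 0.053), in a comparison in which 52.9% of all tested genes fell with an adjusted p under 0.01. After median-of-ratios scaling the change was 0.20 (limma adjusted p = 0.00491). The deposited difference did not pass the test without 0 h replicate 1 (0.0266), without 0 h replicate 2 (0.0149) or without 24 h replicate 1 (0.0142), all adjusted p from limma.

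After the sprays NADP-ME was higher than at 24 h with either hormone. The libraries with ABA had 88.8 and 93.2 FPKM and those with IAA 96.2 and 93.8 FPKM, all above the 67.1 and 71.0 FPKM at 24 h. With ABA it rose by 0.39 (limma adjusted p = 2.05e-04, SE 0.053), or 1.32-fold, where 7.51% of all tested genes rose with an adjusted p under 0.01. With IAA it rose by 0.45 (limma adjusted p = 2.71e-05, SE 0.053), or 1.38-fold, where 28.3% did.

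The rise of NADP-ME with ABA was 0.51 after median-of-ratios scaling and that with IAA 0.28, and both passed the test (limma adjusted p = 1.38e-05 and 7.52e-04). They also passed it with each library left out in turn. Both comparisons use the same 24 h libraries, so they are not independent of each other. Between IAA and ABA the difference of NADP-ME was 0.06 as deposited (limma adjusted p = 0.347, 95% interval from -0.06 to 0.18) and -0.23 after scaling (limma adjusted p = 0.00301), which turns its direction.

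**Figure D2:**
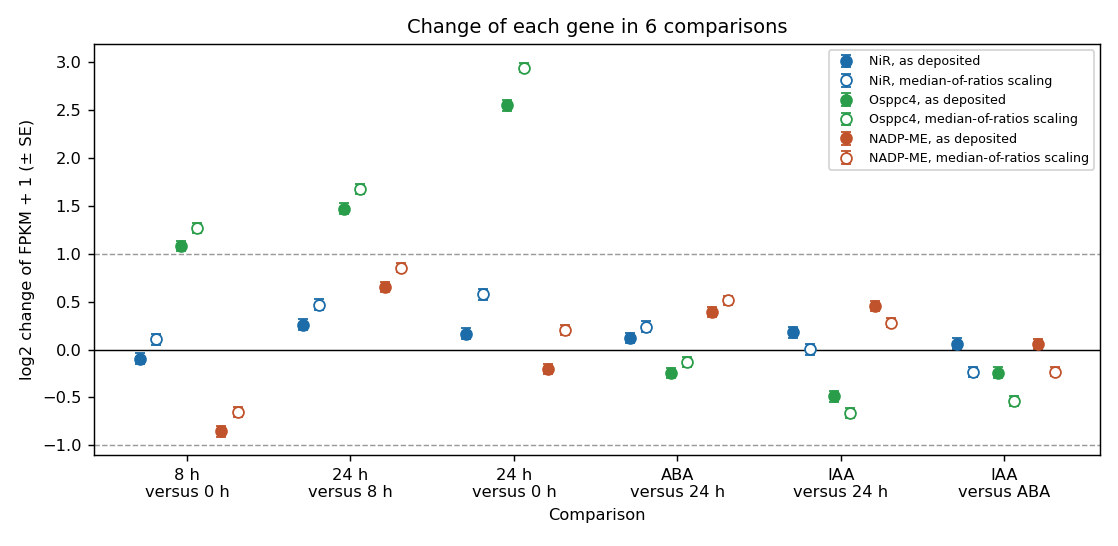
log2 change of FPKM + 1 (vertical axis, error bars SE from limma) of the 3 genes in 6 comparisons (horizontal axis), with filled points as deposited and open points after median-of-ratios scaling; dashed lines mark 2-fold. Osppc4 lies above the upper line in the 3 light comparisons (1.08, 1.47 and 2.55 as deposited), and the open points of NiR and NADP-ME lie below 0 between IAA and ABA (-0.24 and -0.23) where the filled points lie above it.

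Set against all tested genes, the 3 transcripts took different places in the same comparison. From 0 to 24 h, 99.1% of the genes had a lower change than Osppc4, 81.4% a lower change than NiR and 63.5% a lower change than NADP-ME. With IAA, 3.11% of the genes had a lower change than Osppc4, against 54.9% for NiR and 78.3% for NADP-ME. With ABA these shares were 26.8% for Osppc4, 77.9% for NiR and 91.3% for NADP-ME. Thus the gene that gained most under light had the lowest place of the 3 after either spray. The light comparison and both spray comparisons use the same 24 h libraries, so these places are not independent. A high level at 24 h raises the light change and lowers both spray changes.

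**Figure D3:**
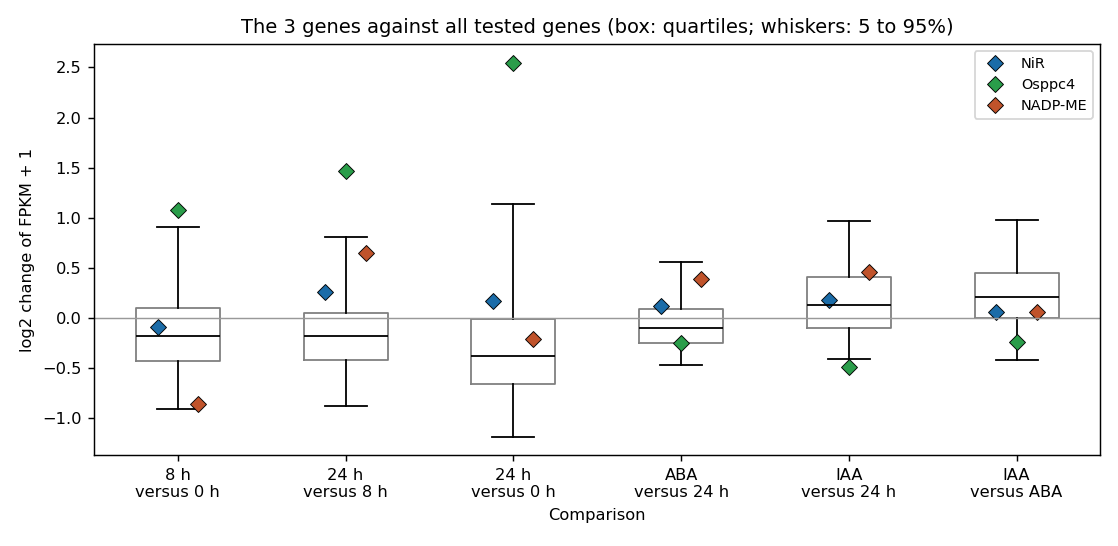
log2 change of FPKM + 1 (vertical axis) in 6 comparisons (horizontal axis), with boxes for the quartiles and whiskers from 5 to 95% of the 1092 tested genes, and diamonds for the 3 genes. Osppc4 lies above the upper whisker in the 3 light comparisons and below the lower one with IAA (-0.49), while NiR lies inside the whiskers throughout.

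The ratio of 2 genes within a library does not depend on the scaling between libraries, so it was used to compare the genes with each other. The FPKM of Osppc4 was 0.251 and 0.255 of that of NADP-ME in the 2 libraries at 0 h. At 8 h the ratio was 1.03 and 0.976, so that the levels were close to equal. At 24 h it was 1.89 and 1.68, and Osppc4 was the more abundant of the pair in both libraries.

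After the sprays the ratio of Osppc4 to NADP-ME was lower again. It was 1.16 and 1.11 with ABA and 0.918 and 0.919 with IAA, and neither pair overlapped with the libraries at 24 h or with each other. As log2 values with the SD of the 2 libraries, the ratio in the dark was -1.98 ± 0.015, that after 8 h of light 0.00 ± 0.054 and that after 24 h 0.83 ± 0.12. The corresponding values were 0.18 ± 0.042 with ABA and -0.12 ± 0.00085 with IAA. The ratios were not tested and are given as a description.

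NiR exceeded both other transcripts in every library, by a margin that changed with the condition. In the dark the FPKM of NiR was 13.9 ± 0.497 times that of Osppc4 (SD, n = 2). This ratio was 6.03 ± 0.331 after 8 h of light and 2.57 ± 0.0425 after 24 h (both SD, n = 2). With ABA it was 3.32 ± 0.0464 and with IAA 4.10 ± 0.0486 (both SD, n = 2). In every condition the 2 libraries lay close to each other and apart from those of the other conditions.

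The ratio of NiR to NADP-ME was highest at 8 h, where NADP-ME had its low point. It was 3.42 and 3.64 at 0 h, 5.97 and 6.11 at 8 h, and 4.92 and 4.26 at 24 h. With ABA it was 3.89 and 3.66 and with IAA 3.73 and 3.80, below both libraries at 24 h. The libraries with ABA and IAA overlapped in this ratio.

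**Figure D4:**
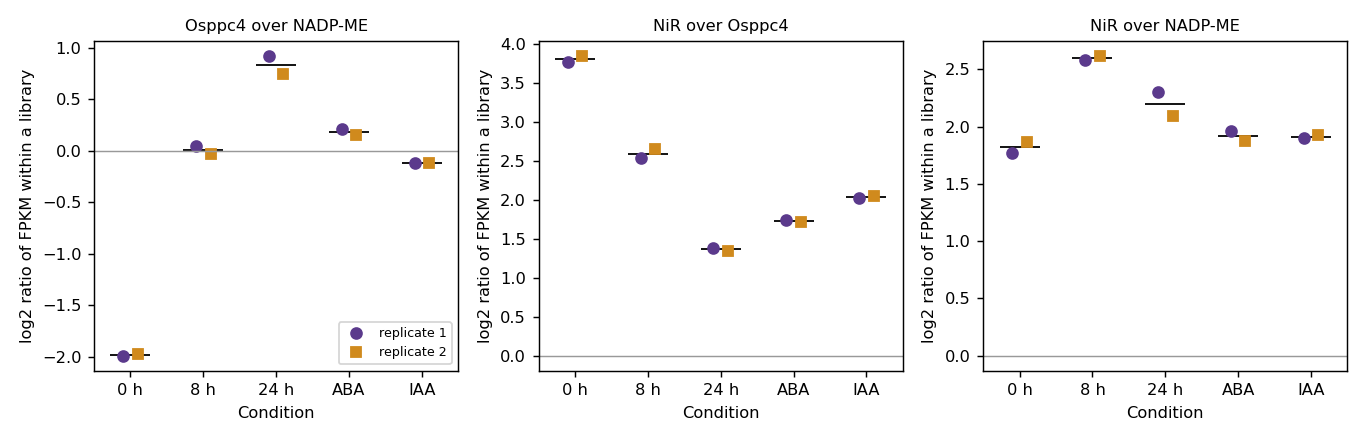
log2 ratio of the FPKM of 2 genes within each library (vertical axes) in the 5 conditions (horizontal axes), where circles and squares are replicates 1 and 2 and horizontal marks their mean; grey lines mark equal levels. Osppc4 over NADP-ME climbed from -1.98 at 0 h to 0.83 at 24 h and was 0.18 with ABA and -0.12 with IAA, while the 2 hormones overlapped in NiR over NADP-ME.

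The order of the 5 conditions differed between the genes. From low to high it was 8 h, 0 h, 24 h, ABA and IAA for NiR, and 0 h, 8 h, IAA, ABA and 24 h for Osppc4. For NADP-ME it was 8 h, 24 h, 0 h, ABA and IAA. No neighbours in these orders overlapped in the deposited values, but the closest, ABA and IAA for NADP-ME, were 0.63 FPKM apart between their nearest libraries. After median-of-ratios scaling the order of Osppc4 was the same. For NiR it became 0 h, 8 h, 24 h, IAA and ABA, with 24 h and IAA overlapping, and for NADP-ME 8 h, 0 h, 24 h, IAA and ABA.

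The genes whose log2(FPKM + 1) was most like that of each gene were taken by Pearson's r over the 10 libraries, as a description. The libraries share conditions and scaling, and the tables used here do not pair the IDs below with names. Osppc4 was most like LOC_Os01g25990 (r = 0.995), LOC_Os01g32830 (r = 0.984) and LOC_Os01g13540 (r = 0.982). LOC_Os01g25990 went from 3.77 FPKM at 0 h to 35.3 FPKM at 24 h and had 22.2 FPKM with IAA, and it stayed the most similar gene after median-of-ratios scaling (r = 0.997).

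NADP-ME was most like LOC_Os01g01910 (r = 0.970), LOC_Os01g03390 (r = 0.956) and LOC_Os01g17396 (r = 0.953). LOC_Os01g03390 had levels close to those of NADP-ME, with 91.4 FPKM at 0 h, 57.3 FPKM at 8 h, 80.2 FPKM at 24 h, 108 FPKM with ABA and 105 FPKM with IAA. Over all tested genes, 11 had r above 0.9 with NADP-ME, against 40 for Osppc4 and 19 for NiR. After scaling these counts were 22, 80 and 74.

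NiR was most like LOC_Os01g08220 (r = 0.978), LOC_Os01g13390 (r = 0.958) and LOC_Os01g31690 (r = 0.946). LOC_Os01g31690, also among the greening loci of list B described at the end, was far more abundant than NiR. It had 1929 FPKM at 0 h and 3232 FPKM with IAA. The likeness of NiR to its leading gene was less stable than for the other genes, since LOC_Os01g08220 was only the gene of rank 23 after median-of-ratios scaling. Among the 3 genes themselves, r was 0.80 between NiR and NADP-ME, 0.71 between NiR and Osppc4 and 0.26 between Osppc4 and NADP-ME, and 0.81, 0.92 and 0.57 after scaling.

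**Figure D5:**
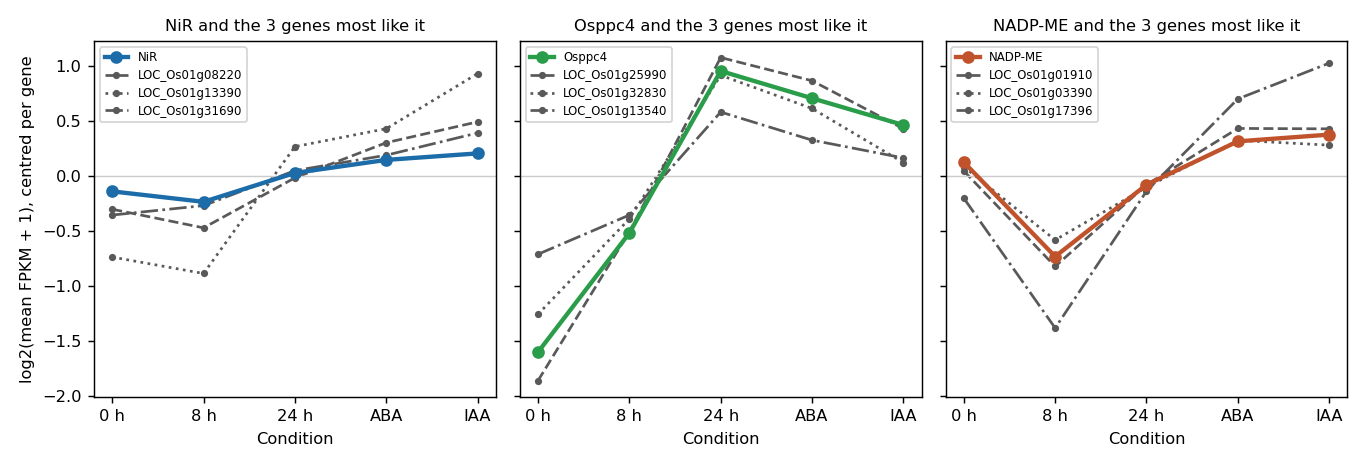
log2 of the mean FPKM + 1, centred for each gene (vertical axis), over the 5 conditions (horizontal axis) for each of the 3 genes (coloured) and the 3 tested genes with the highest Pearson's r to it (grey). The genes like Osppc4 peak at 24 h, those like NADP-ME have their low point at 8 h, and those like NiR span a wider range than NiR itself.

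The nearest genes on either side followed the 3 genes in some comparisons and not in others, in values as deposited. LOC_Os01g11040 and LOC_Os01g11070, which flank Osppc4 on the same strand at 1330 and 1907 bp, had log2 changes of -0.14 and -0.52 between 0 and 24 h, against 2.55 for Osppc4. With ABA, LOC_Os01g11070 fell by 0.43 (limma adjusted p = 0.00234), where Osppc4 was also lower. LOC_Os01g09310, 1298 bp from NADP-ME on the same strand, had a log2 change of -0.07 between 0 and 8 h (limma adjusted p = 0.556), where that of NADP-ME was -0.86. It rose by 0.78 from 8 to 24 h (limma adjusted p = 1.91e-05), where NADP-ME also rose, and with IAA it fell by 0.62 (limma adjusted p = 1.60e-04), where NADP-ME rose. On the other side of NADP-ME, LOC_Os01g09340 is listed at 0 in every library.

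LOC_Os01g25500 starts 215 bp beyond the end of NiR on the same strand, had 2.92 to 15.4 FPKM and was called higher at 8 h than at 0 h (1.08 on the log2 scale, limma adjusted p = 3.21e-04), a comparison in which NiR did not pass the test. LOC_Os01g25470, on the minus strand at 2013 bp from NiR, had at most 0.183 FPKM. Reads shared with other members of these enzyme families elsewhere in the genome could change the levels, and this was not tested.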

How the data were processed

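Poly(A) RNA of 10 libraries (5 conditions with 2 replicates) was sequenced. The methods state that the authors used seqtk for trimming, Hisat2 for alignment and Cufflinks for FPKM values. They do not say which program made the deposited values. Reads were counted without strand, and no strand setting is given for Cufflinks. The submitters' processing notes also name SAMtools, featureCounts and DESeq2, without a role. The gene positions are those of the MSU7.0 models, while the seedlings were of an indica cultivar. That the unit is FPKM comes from the methods and the table name, since the values alone do not settle it. Columns were matched to the samples by library name, and 0 columns were left unmapped. The genes used here lie on chromosome 1 up to position 21262392, so column sums are not the depth. From 2283 rows, 1 incomplete row was left out.

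log2(FPKM + 1) was fitted with limma (version 3.58.1 in R 4.3.3), by lmFit and eBayes (trend on), across all 10 libraries and the 1092 genes whose mean reached 1 FPKM. The 2-fold and 0.01 limits follow the methods of the study, whose own test (DESeq2) needs counts and was not used here. For the 3 genes a fold on this scale slightly understates that in FPKM. For genes with levels near or below 1 FPKM in a condition it understates the fold by much more. The p-values rest on the spread between biological replicates, pooled over the 5 conditions and moderated over all tested genes. A gene thus has the same SE in all 6 comparisons, also where its own replicates lie further apart. The script was tested on simulated data. The members and lists were chosen with earlier results of these data known. The genes named are the 3 enzymes, their nearest neighbours, the 3 genes most like each by Pearson's r, GLK2, called genes of list A (2 loci, other nitrogen and carbon metabolism) and every gene of list B (5 loci, greening). LOC_Os01g16960 of list A was named outside this rule, after its values were seen. The rest of list A was to come from product names, which the annotation used here does not hold. Alternatives tried were median-of-ratios scaling, a pseudocount of 0.1, filters at 0 and 5 FPKM, eBayes without a trend, only the libraries compared, a replicate block, a limit of 0.05 and leaving out each replicate. Ratios were also taken from log2(FPKM + 1). Replicate numbers did not pair the samples. Other steps ran in Python 3.11.15 (numpy 2.4.6, pandas 2.3.3, matplotlib 3.10.9).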

Additional observations from a re-analysis of the deposited data

How the results depend on the processing

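The 3 calls of Osppc4 held under every alternative run, and no change of NiR or NADP-ME became a call. Median-of-ratios scaling turned 4 changes: NiR to 0.11 from 0 to 8 h and to -0.24 between IAA and ABA, and NADP-ME to 0.20 from 0 to 24 h and to -0.23 between IAA and ABA. That scaling removes the shift of the typical gene by construction. With each replicate left out, the change of Osppc4 ran from 1.04 to 1.12 from 0 to 8 h and from 1.42 to 1.51 from 8 to 24 h. A library left out leaves 1 in a condition, which is then assumed to vary like the other conditions.

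Without a trend in eBayes the adjusted p from limma was 0.0106 for NiR from 8 to 24 h, 0.0177 for NADP-ME from 0 to 24 h, 0.0215 for Osppc4 with ABA and 0.0138 for Osppc4 between IAA and ABA. Without a filter it was 0.0142 for NiR from 8 to 24 h and 0.0170 for Osppc4 with ABA. With the libraries of the comparison alone it was 0.0381 for Osppc4 with ABA and 0.0308 for NADP-ME from 0 to 24 h. The replicate differences correlated between conditions by -0.065 to 0.109. With the replicate number as a block, the change of Osppc4 from 0 to 24 h was 2.55, and no adjusted p of the 3 genes moved across 0.01.

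With differences of log2(FPKM + 1), 4 of the 15 log2 ratios moved beyond the SD of the replicates: NiR to Osppc4 was 3.74 at 0 h, NiR to NADP-ME 2.57 at 8 h, Osppc4 to NADP-ME -1.93 at 0 h and -0.12 with IAA. The ratio of Osppc4 to NADP-ME at 8 h ran from -0.035 to 0.042 with either replicate left out, on both sides of equal levels. Because 2 libraries make a condition and the depth is unknown, small differences of NiR are not settled by these data.

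Counts over all tested genes moved more than those of the 3 genes. Median-of-ratios scaling took the genes called lower from 42 to 26 between 0 and 8 h (called higher from 46 to 69), from 39 to 23 between 8 and 24 h and from 93 to 32 between 0 and 24 h. It took those called lower from 1 to 6 with IAA and from 10 to 17 between IAA and ABA, where those called higher went from 53 to 27. With a pseudocount of 0.1 the genes called lower went from 42 to 66 between 0 and 8 h, from 4 to 10 with ABA and from 1 to 3 with IAA, and those called higher between IAA and ABA from 53 to 80. With the filter at 5 FPKM, 2 genes were called lower with ABA and 32 higher between IAA and ABA. Without 24 h replicate 1, 28 in place of 18 were called higher with ABA, and without IAA replicate 2, 2 in place of 1 were called lower with IAA.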

Other observations

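GLK2 (LOC_Os01g13740), a transcription factor known for its part in chloroplast development, did not pass the test between 0 and 8 h, at 0.03 on the log2 scale (limma adjusted p = 0.719). It rose by 0.68 from 8 to 24 h (limma adjusted p = 6.87e-06), below 2-fold, and fell by 0.28 with IAA (limma adjusted p = 0.00696), where Osppc4 fell by 0.49. The difference between GLK2 and Osppc4 was not tested, and the values of GLK2 and of both lists are those as deposited, without further scaling.

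List B (greening) holds GLK2 and 4 loci without a name here. Of these 5 loci, 3 were called higher and 0 lower from 0 to 24 h, where 6.96% of all tested genes were called higher. Their median change was 1.03, against -0.38 over all tested genes. Both lists were chosen with earlier results of these data known, so their counts are a description and not a test. LOC_Os01g14410 was called higher from 0 to 8 h (2.08), with IAA relative to 24 h (1.43) and with IAA relative to ABA (1.41). Its mean was 0.367 FPKM at 0 h and 4.77 FPKM at 8 h, so the added 1 FPKM makes the first change much smaller than in FPKM. None of the 5 loci was called from 8 to 24 h or with ABA, where 3.48% of all tested genes were called higher and 2.01% were called in either direction, so a count of 0 among 5 says little. From 8 to 24 h their median change was 0.68, against -0.18 over all tested genes. LOC_Os01g17170, LOC_Os01g14410, GLK2 and LOC_Os01g31690 rose by 0.98, 0.95, 0.68 and 0.32, each with a limma adjusted p under 0.01. The change of LOC_Os01g01710 was 0.20 (limma adjusted p = 0.0110). Of all tested genes, 12.2% rose at that limit. LOC_Os01g01710 and LOC_Os01g17170 were the others called from 0 to 24 h, at 1.03 and 1.06, and LOC_Os01g31690 was not called, at 0.40. The 2 loci of list A (other nitrogen and carbon metabolism) are also without a name here. LOC_Os01g36720 was called higher from 0 to 8 h (1.36 on the log2 scale, limma adjusted p = 8.76e-06), where 4.21% of all tested genes were. Its level was near the floor, with a mean of 0.311 FPKM at 0 h and 2.37 FPKM at 8 h, where the size of a change depends on the pseudocount. LOC_Os01g16960 was not called in any of the 6 comparisons, with a change of -0.67 from 0 to 24 h.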
